A study of Caenorhabditis elegans with 40 samples.

Results

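The transcripts of 6 branch point recognition factors were followed across a study that targeted 1 of them. They are 6 of the 20956 genes in the deposited table and were chosen by symbol. repo-1, the gene targeted by RNA interference (RNAi), and prp-21 encode subunits of the SF3a complex, sftb-1 encodes the branch point binding subunit of SF3b, sfa-1 encodes splicing factor 1 (SF1), and uaf-1 and uaf-2 encode the large and small subunits of the U2 auxiliary factor (U2AF). RNA came from the whole body of Caenorhabditis elegans on day 1 of adulthood, and the worms had been exposed from hatch either to an empty vector or to repo-1 RNAi. There were 5 genotypes, which were the wild type strain N2 and 4 mutants, the strains DA1116 (eat-2), VC222 (raga-1), MQ130 (clk-1) and TJ1052 (age-1). The alleles were ad1116 of eat-2, ok386 of raga-1, qm30 of clk-1 and hx546 of age-1, and each of the 10 groups of genotype and treatment had 4 libraries.

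Intron removal begins when SF1 binds the branch point, the nucleotide at which the intron is later joined into a lariat, and U2AF binds the 3′ splice site just downstream. The U2 small nuclear ribonucleoprotein (U2 snRNP) then replaces SF1 at the branch point, and its SF3a and SF3b complexes hold it there. In C. elegans the 3′ splice site consensus is short and invariant, and the large and small U2AF subunits read it together. The mutants are long-lived models of different pathways. EAT-2 is a pharyngeal acetylcholine receptor subunit whose loss slows feeding, RAGA-1 is a Rag GTPase upstream of the kinase complex TORC1, CLK-1 is an enzyme of ubiquinone synthesis, and AGE-1 is the catalytic subunit of the phosphoinositide 3-kinase in insulin-like signalling.

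Values are normalized read counts, which are gene counts that the authors divided by 1 size factor per library, and the table holds no measurement of splicing or of transcript isoforms. The recovered depth was 7430044 to 40777780 reads per library, and the number of reads behind a single value ranged from 136 for repo-1 to 9967 for sftb-1. Comparisons are log2 fold changes ± standard error (SE) from limma on the log2 of the value plus 1, fitted to 12327 genes whose mean over all libraries was 10 or more, and a gene is called at a Benjamini-Hochberg adjusted p under 0.05 over all of them. All 6 genes passed the filter. The libraries of a group are numbered 1 to 4 by batch, and separate cultures are not stated in the labels. The p-values therefore measure only the spread between these samples. raga-1 itself stood between 12.7 and 135 in the 8 libraries of the raga-1 mutant, and clk-1 between 67.9 and 97.8 in those of the clk-1 mutant, where the wild type empty vector means were 1514 and 227. The levels of eat-2 and age-1 do not test their labels, because eat-2 was near 0 in every group and age-1 was not called different in its own mutant.

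repo-1 (WBGene00008683) lies on chromosome IV of WBcel235 at 12084478 to 12085320 on the plus strand, and its single annotated transcript has 2 exons and 761 exonic bases. Its protein corresponds to human SF3A2. repo-1 transcript fell under repo-1 RNAi in all 5 genotypes, to between 38.0% and 52.7% of the mean on empty vector. In wild type, repo-1 measured 815, 826, 826 and 889 on empty vector and 310, 314, 342 and 307 on RNAi, in the order of batches 1 to 4. The mean fell from 839 ± 33.6 to 318 ± 16.03 (SD, n = 4), a log2 fold change of -1.40 ± 0.09 (adjusted p = 2.5e-14), and no RNAi library came near the empty vector range.

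In eat-2 the empty vector libraries held 680, 696, 679 and 660 and the RNAi libraries 381, 408, 307 and 336. This was the smallest fall of the 5, to 52.7% of the mean on empty vector (log2 fold change -0.93 ± 0.09, adjusted p = 2.1e-10). In raga-1 repo-1 measured 587, 684, 659 and 667 on empty vector and 279, 291, 361 and 309 on RNAi, a fall of 1.07 ± 0.09 on the log2 scale (adjusted p = 5.3e-13). Empty vector batch 1 was the lowest untreated raga-1 library, yet it still lay far above the highest RNAi library. In clk-1 the values were 653, 646, 651 and 693 on empty vector and 244, 258, 289 and 270 on RNAi, the lowest RNAi group of the series (log2 fold change -1.32 ± 0.09, adjusted p = 2.0e-14). In age-1 they were 771, 860, 798 and 792 on empty vector and 471, 367, 323 and 331 on RNAi, with a log2 fold change of -1.12 ± 0.09 (adjusted p = 1.4e-11). The age-1 RNAi group had the widest spread, with an SD of 68.1 around a mean of 373, because the batch 1 library stood above the other 3. The empty vector and RNAi ranges did not overlap in any genotype.

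**Figure D1:**
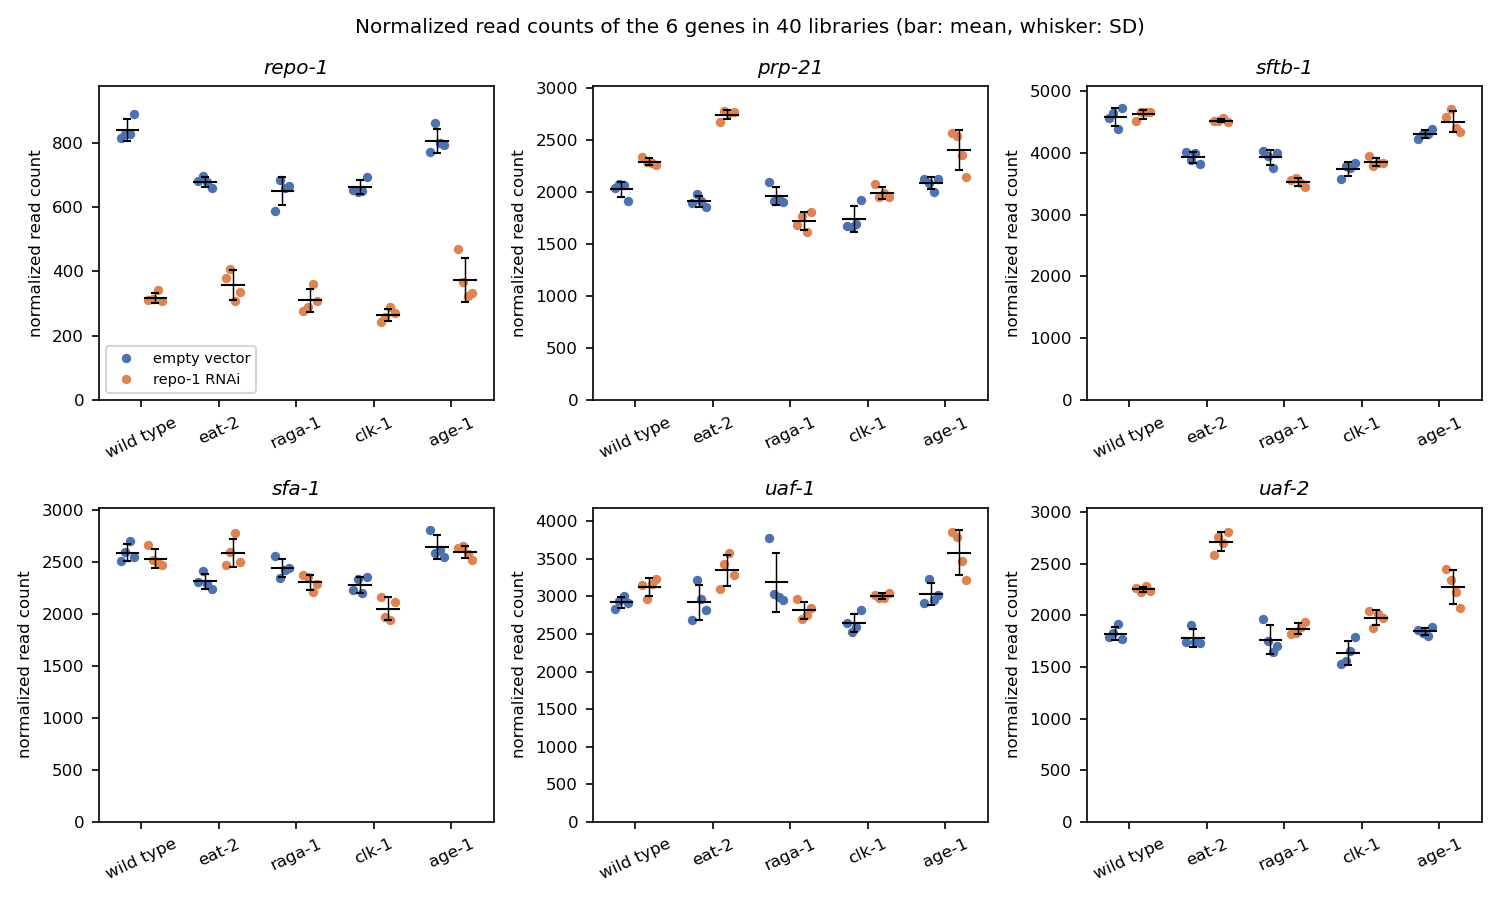
Normalized read counts (y axes, linear from 0) of the 6 genes in each of the 40 libraries, by genotype (x axes) and treatment (blue, empty vector; orange, repo-1 RNAi). Points are libraries, bars are means and whiskers are SD (n = 4). repo-1 drops in every genotype, while uaf-2 and prp-21 stand highest in eat-2 on RNAi.

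Each batch holds 1 library of every group, so the fall can also be read within batches. By its library name in the labels, raga-1 RNAi replicate 3 carries another date and pool than the raga-1 libraries beside it, although it is labelled batch 3. In all 20 pairs of an RNAi and an empty vector library of the same genotype and batch, repo-1 was lower on RNAi, at 34.6% to 61.1% of its partner. With batches 1 and 2 alone the log2 fold changes for wild type, eat-2, raga-1, clk-1 and age-1 were -1.39, -0.80, -1.15, -1.37 and -0.97. With batches 3 and 4 alone they were -1.40, -1.06, -0.99, -1.26 and -1.28 in the same order. Averaged over genotypes, repo-1 fell by 1.17 ± 0.04 on the log2 scale (adjusted p = 5.0e-23).

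The fall was not of equal size in all genotypes. Relative to the change in wild type, the fall was smaller by 0.47 ± 0.12 on the log2 scale in eat-2 (adjusted p = 0.0098) and by 0.33 ± 0.12 in raga-1 (adjusted p = 0.025). The difference between clk-1 and wild type was 0.08 ± 0.12, with a 95% interval from -0.17 to 0.33, and in age-1 it was 0.27 ± 0.12, with an interval from 0.02 to 0.52 and an adjusted p of 0.85. The eat-2 difference was no longer called with batches 3 and 4 alone (0.34, adjusted p = 0.11) or after quantile normalization (0.34, adjusted p = 0.064). The raga-1 difference depended on the scaling, at 0.20 (adjusted p = 0.18) with TMM factors and 0.11 (adjusted p = 0.47) after quantile normalization, and on single libraries, at 0.28 (adjusted p = 0.062) without raga-1 empty vector replicate 1 and 0.25 (adjusted p = 0.079) without raga-1 RNAi replicate 3.

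The genotypes also differed in repo-1 without RNAi. On empty vector, repo-1 was lower than in wild type in 3 mutants. The log2 fold change was -0.30 ± 0.09 for eat-2 (adjusted p = 0.0031), -0.34 ± 0.09 for clk-1 (adjusted p = 9.6e-04) and -0.37 ± 0.09 for raga-1 (adjusted p = 6.6e-04), which left 80.9%, 78.8% and 77.4% of the wild type mean. None of these 3 groups overlapped the wild type range. With batches 1 and 2 alone the eat-2 value was -0.25 (adjusted p = 0.066). The age-1 mean without RNAi was 96.0% of the wild type mean, within the spread (-0.06 ± 0.09, adjusted p = 0.77). On RNAi, repo-1 was called lower than in wild type in clk-1 (-0.26 ± 0.09, adjusted p = 0.0096), while eat-2, raga-1 and age-1 gave 0.16 ± 0.09, -0.05 ± 0.09 and 0.21 ± 0.09, none of them called. After quantile normalization the raga-1 value was -0.23 and called (adjusted p = 0.017). The eat-2 value was called without eat-2 RNAi replicate 3 (0.23, adjusted p = 0.035), and the age-1 value without age-1 RNAi replicate 3 (0.28, adjusted p = 0.038) or replicate 4 (0.26, adjusted p = 0.038).

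Ordered by mean, the 10 groups gave 3 tiers of repo-1. Wild type (839) and age-1 (805) on empty vector came first and overlapped in range. eat-2 (679), clk-1 (661) and raga-1 (649) on empty vector formed the middle tier and overlapped with each other, with a gap to the tiers above and below. The 5 RNAi groups followed, from age-1 (373) through eat-2 (358), wild type (318) and raga-1 (310) to clk-1 (265), and each overlapped the next. The highest group mean was 3.16 times the lowest for repo-1, compared with 1.66 for uaf-2, 1.60 for prp-21, 1.35 for uaf-1, 1.31 for sftb-1 and 1.29 for sfa-1.

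A comparison that uses no scaling between libraries gave the same direction. The log2 value of repo-1 minus the mean log2 value of the other 5 genes in the same library was -1.65 ± 0.07 in wild type on empty vector and -3.16 ± 0.07 on RNAi (SD, n = 4), so the ratio fell to 35.1%. For raga-1 the ratio fell to 51.1%, for eat-2 to 41.5%, for age-1 to 41.1% and for clk-1 to 37.2%. In every genotype all 4 RNAi libraries were below all 4 empty vector libraries, with a 2-sided exact permutation p of 0.029, which is the smallest that 4 against 4 libraries allow, and an adjusted p of 0.029 over the 5 genotypes. With libraries paired by batch, the exact sign-flip p was 0.125 in each genotype, which is the smallest that 4 pairs allow and does not pass. On this ratio raga-1, not eat-2, had the smallest fall. The reference genes also responded to RNAi, since all 5 were called higher in eat-2 and 3 were called lower in raga-1. The order of genotypes therefore depends on the reference as well as on repo-1. In addition, raga-1 empty vector replicate 1 (-2.23) lay below the other raga-1 libraries on empty vector (-1.89 to -1.86). With prp-21 alone as the reference the ratio fell to between 33.5% in wild type and 54.3% in raga-1.

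**Figure D2:**
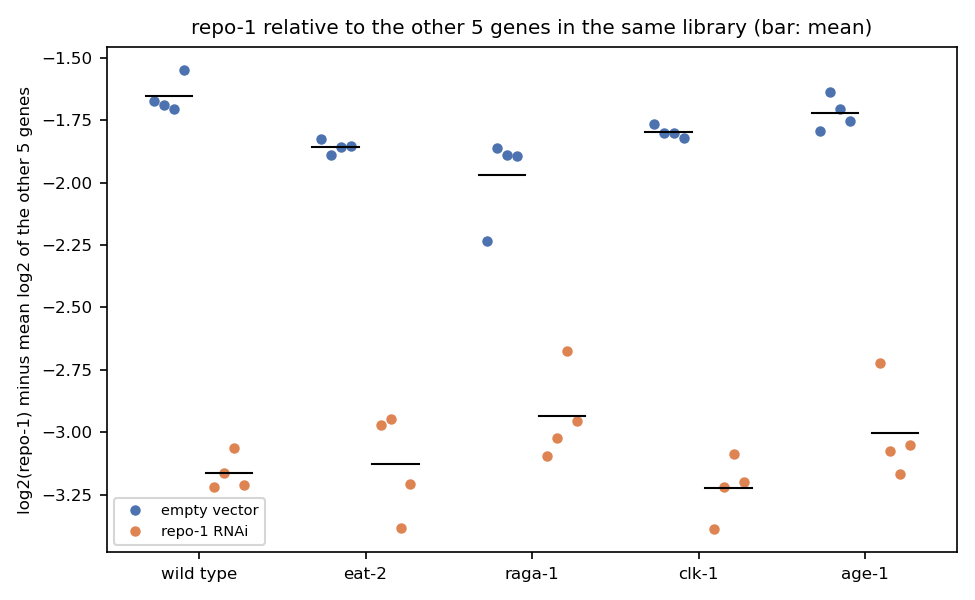
log2 of the repo-1 value minus the mean log2 value of the other 5 genes in the same library (y axis), by genotype (x axis) and treatment. Points are libraries and bars are means (n = 4). In every genotype the 4 RNAi libraries (-3.39 to -2.67) lie below the 4 empty vector libraries (-2.23 to -1.55).

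Across all 6 genes, the number called under RNAi was 6 in eat-2, 5 in clk-1, 4 each in age-1 and raga-1, and 3 in wild type. Each count includes repo-1, the target itself. The share of all tested genes called was 37.5% in eat-2, 46.3% in clk-1, 20.9% in age-1, 71.1% in raga-1 and 23% in wild type, so the raga-1 count is near its background. Among the other 5 genes, 2 rose and none fell in wild type, where 10.1% of tested genes rose and 12.9% fell. In eat-2 all 5 rose, where 16.2% of tested genes rose and 21.4% fell. In raga-1 3 fell and none rose, where 33% fell. In clk-1 3 rose and 1 fell, where 23.8% rose and 22.5% fell. In age-1 3 rose and none fell, where 10.6% rose and 10.2% fell. The effect averaged over genotypes was called for 5 of the 6 genes, with repo-1 the only one lower, against 65.6% of all tested genes, of which 31.4% were higher and 34.2% lower.

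**Figure D3:**
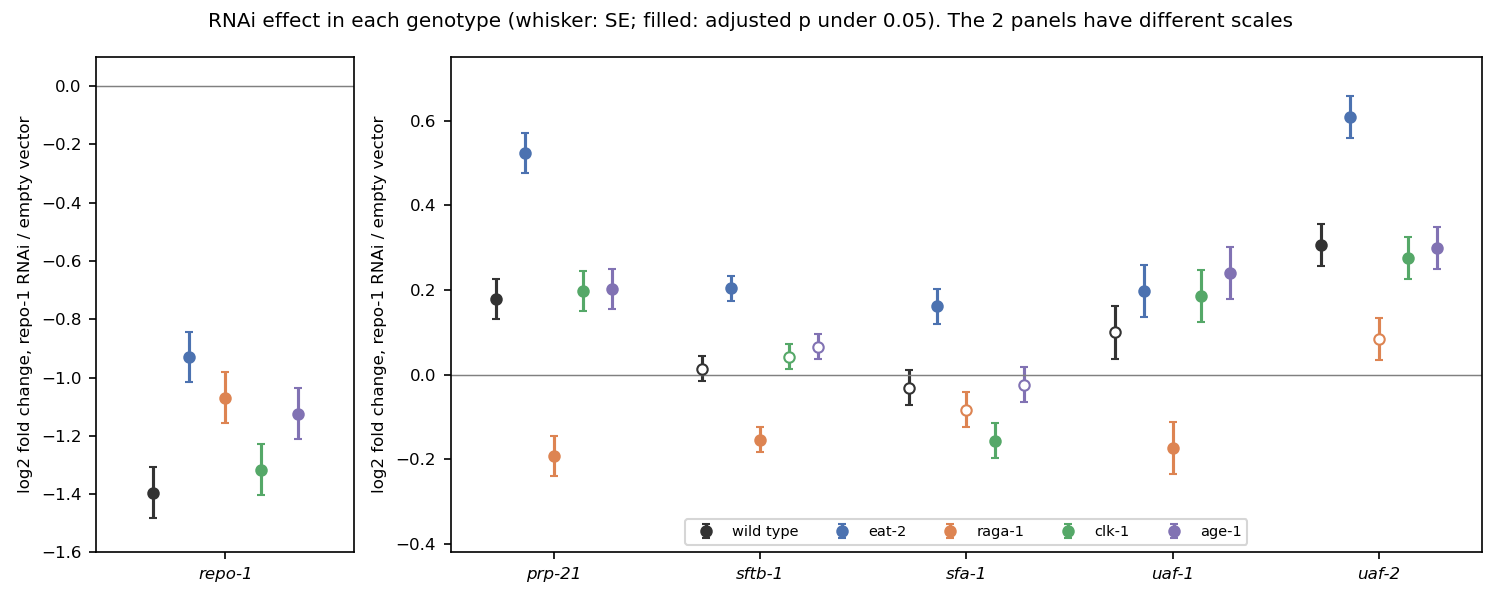
log2 fold change of repo-1 RNAi over empty vector (y axes; the scale of the left panel differs from that of the right) for each gene (x axes) and genotype (colours). Points are limma estimates, whiskers are SE and filled points have an adjusted p under 0.05. Among the 5 genes that were not targeted, eat-2 has the highest value for every gene but uaf-1, and raga-1 the lowest for every gene but sfa-1.

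prp-21 (WBGene00004188, chromosome II at 484866 to 490403, plus strand, 9 exons) encodes the counterpart of human SF3A1 and is the SF3a partner of REPO-1. It was called in every genotype, higher in 4 and lower in raga-1. In wild type, prp-21 measured 2036, 2074, 2066 and 1916 on empty vector and 2336, 2288, 2272 and 2262 on RNAi, a log2 fold change of 0.18 ± 0.05 (adjusted p = 0.0050). The ranges were separate. In eat-2 it went from 1889, 1978, 1914 and 1850 to 2672, 2772, 2753 and 2764, a rise to 144% of the mean on empty vector (0.52 ± 0.05, adjusted p = 9.0e-11) and the highest level of prp-21 in any group. In raga-1 it went from 2091, 1913, 1933 and 1903 to 1685, 1766, 1611 and 1806, a fall of 0.19 ± 0.05 (adjusted p = 5.3e-04). No raga-1 library on RNAi reached the lowest one on empty vector.

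In clk-1 prp-21 measured 1673, 1664, 1695 and 1926 on empty vector and 2075, 1953, 1992 and 1946 on RNAi (0.20 ± 0.05, adjusted p = 7.7e-04). The groups were separate, but the batch 4 library on empty vector stood just below them. In age-1 it measured 2125, 2081, 1999 and 2125 on empty vector and 2567, 2538, 2353 and 2144 on RNAi (0.20 ± 0.05, adjusted p = 0.0023). Against the change in wild type, the change in eat-2 was larger by 0.34 ± 0.07 (adjusted p = 4.7e-04) and that in raga-1 lower by 0.37 ± 0.07 (adjusted p = 1.9e-05). The differences for clk-1 (0.02, 95% interval -0.12 to 0.15) and age-1 (0.02, -0.11 to 0.16) were not called. With batches 3 and 4 alone the calls in clk-1 and age-1 were lost, at 0.12 (adjusted p = 0.16) and 0.12 (adjusted p = 0.26), and wild type gave 0.17 (adjusted p = 0.066) and 0.19 (adjusted p = 0.072) in the first and the second pair of batches.

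sftb-1 (WBGene00011605, chromosome III at 4263786 to 4269270, minus strand, 11 exons) encodes the counterpart of human SF3B1, the SF3b subunit that encloses the branch point. It rose in eat-2 and fell in raga-1, and was not called in the other 3 genotypes. In eat-2 the values were 4006, 3889, 3990 and 3811 on empty vector and 4511, 4508, 4559 and 4497 on RNAi (0.20 ± 0.03, adjusted p = 1.4e-06). In raga-1 they were 4025, 3947, 3751 and 3993 on empty vector and 3564, 3599, 3517 and 3444 on RNAi (-0.15 ± 0.03, adjusted p = 2.5e-05). Both pairs of ranges were separate.

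In wild type sftb-1 had a mean of 4579 ± 143 on empty vector and 4621 ± 68.1 on RNAi (SD, n = 4), with overlapping ranges and a log2 fold change of 0.01 ± 0.03. The clk-1 and age-1 changes were 0.04 ± 0.03 and 0.07 ± 0.03 (adjusted p = 0.25 and 0.11), the latter called without age-1 RNAi replicate 4 (0.08, adjusted p = 0.042). Both called effects differed from that in wild type, by 0.19 ± 0.04 in eat-2 (adjusted p = 0.0018) and by -0.17 ± 0.04 in raga-1 (adjusted p = 0.0011). The eat-2 difference was of like size but not called within either pair of batches (0.20 and 0.18, adjusted p = 0.12 and 0.10), and the raga-1 difference was not called within batches 1 and 2 (-0.15, adjusted p = 0.069). Averaged over genotypes sftb-1 was called at 0.03 ± 0.01 (adjusted p = 0.023), a value that was -3.9e-06 (adjusted p = 1.0) under TMM scaling.

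sfa-1 (WBGene00013808, chromosome IV at 17103825 to 17110982, minus strand, 8 exons in its coding transcript) encodes SF1. Its response had no common direction. In eat-2 it rose from 2305, 2415, 2290 and 2242 to 2472, 2600, 2778 and 2501 (0.16 ± 0.04, adjusted p = 0.0021). In clk-1 it fell from 2227, 2333, 2206 and 2355 to 2168, 1967, 1941 and 2115 (-0.16 ± 0.04, adjusted p = 0.0020), the lowest sfa-1 group of the series. The ranges were separate in both. With batches 1 and 2 alone neither was called, at 0.10 (adjusted p = 0.28) and -0.14 (adjusted p = 0.11).

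In wild type, raga-1 and age-1 sfa-1 gave -0.03 ± 0.04, -0.08 ± 0.04 and -0.02 ± 0.04, and the empty vector and RNAi ranges overlapped. The raga-1 value was called without raga-1 empty vector replicate 2 (-0.10, adjusted p = 0.040) and with TMM scaling (-0.20, adjusted p = 6.1e-05), while after quantile normalization its sign turned (0.03, adjusted p = 0.41). The change in eat-2 differed from that in wild type by 0.19 ± 0.06 (adjusted p = 0.026), but this difference was lost with TMM scaling (0.15, adjusted p = 0.089) and when any of 5 single libraries was left out (adjusted p from 0.053 to 0.083). Those libraries were wild type empty vector replicate 3, wild type RNAi replicates 3 and 4, eat-2 empty vector replicate 4 and eat-2 RNAi replicate 3.

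uaf-2 (WBGene00006698, chromosome IV at 17116771 to 17118767, minus strand, 4 exons in its longest transcript) encodes the small U2AF subunit, which contacts the end of the intron. It had the largest rises of the 6 genes and was called higher in every genotype but raga-1. In wild type uaf-2 measured 1787, 1826, 1913 and 1769 on empty vector and 2261, 2231, 2285 and 2238 on RNAi, which is 124% of the mean on empty vector (0.31 ± 0.05, adjusted p = 1.9e-05). In eat-2 it went from 1742, 1911, 1743 and 1734 to 2590, 2763, 2702 and 2807, or 152% (0.61 ± 0.05, adjusted p = 8.7e-12). In clk-1 it went from 1533, 1561, 1657 and 1787 to 2042, 1875, 2014 and 1978 (0.28 ± 0.05, adjusted p = 2.0e-05). In each of these 3 genotypes the 4 RNAi libraries were above the 4 empty vector libraries.

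In age-1 uaf-2 measured 1860, 1825, 1802 and 1888 on empty vector and 2452, 2346, 2224 and 2073 on RNAi (0.30 ± 0.05, adjusted p = 4.0e-05), again with no overlap. In raga-1 it measured 1961, 1752, 1643 and 1706 on empty vector and 1822, 1831, 1884 and 1936 on RNAi (0.08 ± 0.05, adjusted p = 0.12). Those ranges overlapped through 1 library, raga-1 empty vector replicate 1, and without it the value was 0.14 (adjusted p = 0.014). With TMM scaling it was -0.03 (adjusted p = 0.58). Compared with wild type the change was larger by 0.30 ± 0.07 in eat-2 (adjusted p = 0.0030) and smaller by 0.22 ± 0.07 in raga-1 (log2 difference -0.22, adjusted p = 0.0079). The difference in eat-2 was 0.24 (adjusted p = 0.23) with batches 1 and 2 alone, and that in raga-1 was -0.11 (adjusted p = 0.28) with batches 3 and 4 alone. After quantile normalization the raga-1 difference was also not called (-0.11, adjusted p = 0.14).

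uaf-1 (WBGene00006697, chromosome III at 1062794 to 1076555, minus strand, 7 exons in its longest transcript) encodes the large U2AF subunit, which binds the polypyrimidine stretch. It was called higher on RNAi in eat-2, clk-1 and age-1 and lower in raga-1. In clk-1 the values were 2645, 2525, 2598 and 2815 on empty vector and 3018, 2978, 2975 and 3049 on RNAi (0.18 ± 0.06, adjusted p = 0.013), with separate ranges. In age-1 they were 2907, 3237, 2950 and 3015 on empty vector and 3853, 3792, 3473 and 3215 on RNAi (0.24 ± 0.06, adjusted p = 0.0049). The lowest age-1 library on RNAi lay just below the highest on empty vector.

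In eat-2 uaf-1 measured 2680, 3221, 2972 and 2822 on empty vector and 3093, 3438, 3575 and 3285 on RNAi (0.20 ± 0.06, adjusted p = 0.011). Both eat-2 groups were broad and overlapped. The call was lost without eat-2 empty vector replicate 1 (0.16, adjusted p = 0.064) or eat-2 RNAi replicate 3 (0.16, adjusted p = 0.053). In raga-1 it measured 3774, 3039, 2996 and 2949 on empty vector and 2964, 2697, 2756 and 2846 on RNAi (-0.17 ± 0.06, adjusted p = 0.013). This fall rested on 1 library, since without raga-1 empty vector replicate 1 it was -0.09 (adjusted p = 0.15). The change in raga-1 differed from that in wild type by -0.27 ± 0.09 (adjusted p = 0.0086), where wild type itself gave 0.10 ± 0.06 (adjusted p = 0.25). That difference was -0.15 (adjusted p = 0.11) after quantile normalization.

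The raga-1 directions depend on how libraries are scaled. On the deposited scale the median log2 change of all tested genes under RNAi in raga-1 was 0.10, while it was between -0.03 and 0.01 in the other 4 genotypes. With TMM factors this raga-1 median was -0.01 and after quantile normalization -0.07. Relative to the median of all genes, prp-21, uaf-1 and sftb-1 stood at -0.29, -0.27 and -0.25 on the deposited scale and at -0.29, -0.28 and -0.26 with TMM factors. Both scalings divide each library by a single factor, so these values are nearly equal by construction and are not separate support. After quantile normalization the same 3 genes stood at 0.01, 0.02 and 0.04 and none was called, while uaf-2 was called higher (log2 fold change 0.21, adjusted p = 5.0e-05). repo-1 was called lower in raga-1 under each of these scalings (-1.07, -1.18 and -1.15).

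Markers of whole tissues also changed under RNAi. All 14 germline and oocyte markers were lower in raga-1 on RNAi (median log2 fold change -0.84), and their summed level went from 223460 to 243470 on empty vector down to 121070 to 139140. In wild type 6 of the 14 were lower and none higher, in eat-2 6 and none, in clk-1 6 lower and 3 higher, and in age-1 4 and none, with medians between -0.08 and -0.04. Germline sums on empty vector and on RNAi were 258310 to 269010 and 236970 to 245850 in wild type. They were 204740 to 216120 and 188440 to 195570 in eat-2, and 203980 to 216510 and 171320 to 188410 in clk-1. In age-1 they overlapped, at 248240 to 258890 and 226680 to 261400. Sperm markers were higher, 9 of 9 in raga-1 and clk-1 and 4 of 9 in each of the other 3 genotypes, with sums of 3330 to 4119 in raga-1 on RNAi against 205 to 551 on empty vector. In wild type the sperm sums were 156 to 447 on empty vector and 815 to 1327 on RNAi, in eat-2 160 to 627 and 746 to 1250, in clk-1 65.3 to 111 and 640 to 3792, and in age-1 237 to 482 and 559 to 1660. Body wall muscle and neuron markers were higher in raga-1 on RNAi for 10 of 10 and 10 of 10 genes, intestine markers for 9 of 10 and hypodermis markers for 4 of 6. In clk-1 on RNAi 8 of 10 muscle markers (median 0.57) and 8 of 10 neuron markers (median 0.47) were higher, and at most 4 of 10 were in each of the other 3 genotypes. In eat-2 on RNAi 4 muscle markers were higher and 2 lower, and 1 neuron marker was higher and 3 lower. Of all tested genes, 10.1% were higher and 12.9% lower on RNAi in wild type, and 16.2% and 21.4% in eat-2. These shares were 23.8% and 22.5% in clk-1 and 10.6% and 10.2% in age-1. In raga-1 71.1% of all tested genes were called and 33% were lower, so the marker counts there stand beside a large share. No listed marker was at 0 across a whole group. In RNA from whole worms, fewer germ cells and less of a transcript per germ cell cannot be told apart, and the part of tissue composition in the changes of the 6 genes was not tested.

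Between genotypes on empty vector and on the deposited scale, the 6 genes were lower or not called in each mutant. In eat-2 3 of the 6 genes were lower and none higher, where 57% of tested genes were called and 29.8% were lower. In raga-1 2 were lower, where 46.1% were called and 26.4% were lower. In clk-1 all 6 were lower, where 58.3% were called and 30.4% were lower. In age-1 none of the 6 was called by limma or by edgeR, 1 had an unadjusted p under 0.05, and 8.48% of tested genes were called. These comparisons share the wild type libraries, so they are not independent of each other.

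sftb-1 was the most evenly lower of the genes that were not targeted. Its mean was 81.6% of the wild type mean for clk-1 (log2 fold change -0.29 ± 0.03, adjusted p = 1.5e-10), 85.7% for eat-2 (-0.22 ± 0.03, adjusted p = 8.0e-08) and 85.8% for raga-1 (-0.22 ± 0.03, adjusted p = 1.7e-07), in each without overlap with wild type. In age-1 it was 93.9% (-0.09 ± 0.03, adjusted p = 0.0504), and without wild type empty vector replicate 3 that value was called (-0.11, adjusted p = 0.022). sfa-1 was lower in eat-2 (-0.16 ± 0.04, adjusted p = 9.3e-04) and clk-1 (-0.18 ± 0.04, adjusted p = 2.3e-04), but after quantile normalization neither was called, at -0.05 (adjusted p = 0.22) and -0.07 (adjusted p = 0.096). In raga-1 it gave -0.08 ± 0.04 (adjusted p = 0.093), which was called without raga-1 empty vector replicate 1 (-0.11, adjusted p = 0.045).

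prp-21, uaf-2 and uaf-1 were called on the deposited scale in clk-1 and in no other mutant on empty vector, at -0.22 ± 0.05 (adjusted p = 1.4e-04), -0.16 ± 0.05 (adjusted p = 0.0059) and -0.14 ± 0.06 (adjusted p = 0.044). In raga-1 uaf-1 gave 0.12 (adjusted p = 0.11) on the deposited scale, but it was called higher with TMM factors (0.16, adjusted p = 0.028), after quantile normalization (0.17, adjusted p = 0.011) and with edgeR (0.16, adjusted p = 0.029). For prp-21 and uaf-2 the clk-1 range overlapped that of wild type through its batch 4 library, and with batches 3 and 4 alone neither was called (-0.14 and -0.10, adjusted p = 0.097 and 0.15). The uaf-1 call was the least secure of the 6. With batch as a block its adjusted p was 0.052, and it was lost when any of 6 single libraries was left out (adjusted p from 0.068 to 0.12), namely wild type empty vector replicates 2, 3 and 4 and clk-1 empty vector replicates 1, 2 and 3. Germline and oocyte markers were lower in the same mutants, 14 of 14 in eat-2 (median -0.32) and in clk-1 (median -0.39), 8 of 14 in raga-1 (median -0.15) and 1 of 14 in age-1 (median -0.03). Their summed level ran from 203980 to 216510 in clk-1, 204740 to 216120 in eat-2, 223460 to 243470 in raga-1, 248240 to 258890 in age-1 and 258310 to 269010 in wild type. Neuron markers were higher in eat-2 (9 of 10, median 0.55), raga-1 (8 of 10, median 0.50) and clk-1 (6 of 10, median 0.34) and in none of 10 in age-1. Muscle markers were higher for 5 of 10 in eat-2, 7 of 10 in raga-1 and 7 of 10 in age-1. In clk-1 7 of the 10 muscle markers were lower and 2 higher. Intestine markers were higher and lower for 5 and 2 of 10 in eat-2, 3 and 3 in raga-1, 5 and 3 in clk-1 and 2 and 0 in age-1. Their sums were 1328700 to 1478200 in wild type, 943610 to 997760 in eat-2, 2457200 to 3019000 in raga-1 and 1745600 to 2051800 in clk-1. In age-1 they were 1329300 to 1538600. A sum weighs each gene by its level, so it need not follow the counts, as in eat-2, and does not measure the amount of tissue. Of 6 hypodermis markers 2 were higher and 2 lower in eat-2, 1 and 0 in raga-1, 2 and 1 in clk-1 and 0 and 0 in age-1. Beside these marker counts, 57% of all tested genes were called and 29.8% were lower in eat-2, and 46.1% and 26.4% in raga-1. In clk-1 the shares were 58.3% and 30.4%, and in age-1 8.48% were called. The part of these tissues in the lower values of the 6 genes was not tested.

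**Figure D4:**
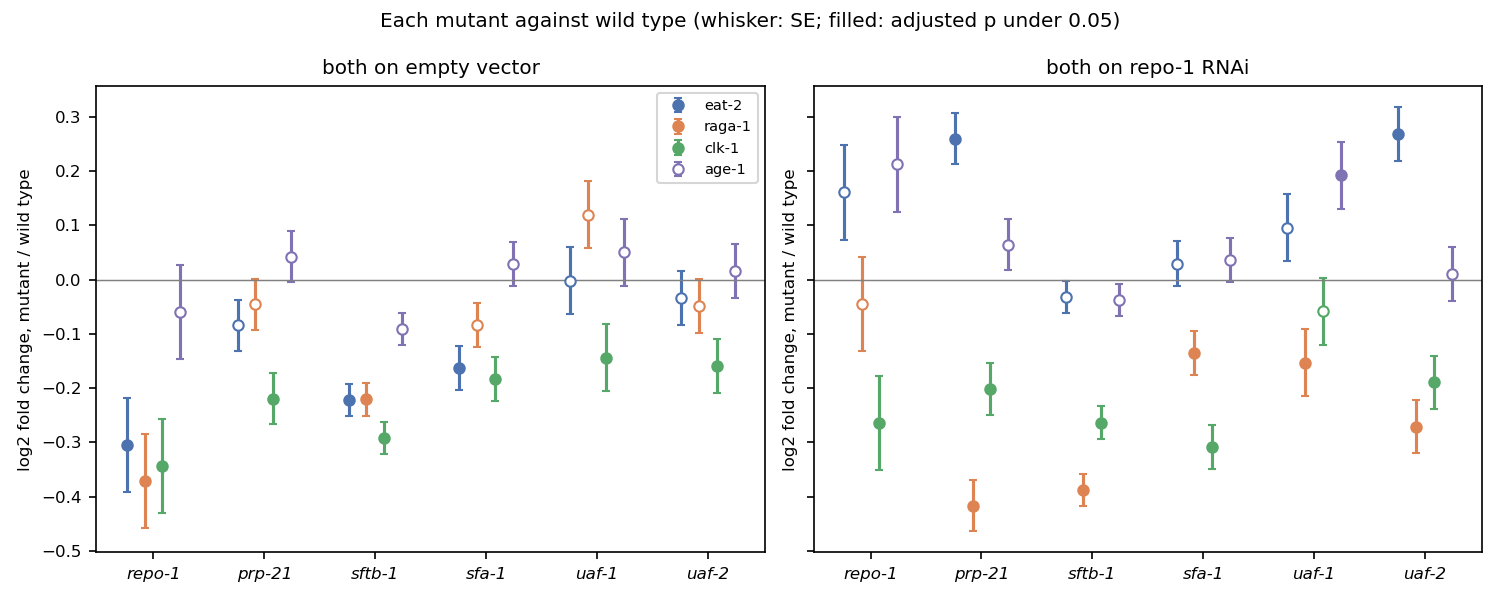
log2 fold change of each mutant over wild type (y axis, shared) for the 6 genes (x axis), with both genotypes on empty vector (left) or on repo-1 RNAi (right). Points are limma estimates, whiskers are SE and filled points have an adjusted p under 0.05. On empty vector every called point is below 0, and on RNAi the called points of eat-2 (0.26 and 0.27) lie above 0 and those of raga-1 and clk-1 below it.

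On repo-1 RNAi the mutants diverged. In eat-2 2 of the 6 genes were higher than in wild type on RNAi and none lower, where 46.9% of tested genes were called and 23.4% were higher. They were prp-21 (0.26 ± 0.05, adjusted p = 2.5e-05) and uaf-2 (0.27 ± 0.05, adjusted p = 3.1e-05), whose eat-2 libraries all lay above those of wild type. In raga-1 5 were lower, where 78.5% were called and 38% were lower. They were prp-21 (-0.42 ± 0.05), sftb-1 (-0.39 ± 0.03), uaf-2 (-0.27 ± 0.05), uaf-1 (-0.15 ± 0.06) and sfa-1 (-0.14 ± 0.04), with adjusted p from 4.1e-14 for sftb-1 to 0.024 for uaf-1. After quantile normalization sfa-1 gave 0.03 and uaf-1 0.02, neither called. The uaf-1 call was also lost without wild type RNAi replicate 4, raga-1 RNAi replicate 2 or raga-1 RNAi replicate 3 (adjusted p from 0.053 to 0.070). All 14 germline and oocyte markers were lower in this comparison, with a median of -0.89, and their part was not tested.

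In clk-1 on RNAi 5 of the 6 genes were lower than in wild type on RNAi, where 58.3% were called and 29% were lower. sfa-1 had the largest difference (-0.31 ± 0.04, adjusted p = 5.5e-08), followed by repo-1, sftb-1 (both -0.26), prp-21 (-0.20) and uaf-2 (-0.19). uaf-1 gave -0.06 ± 0.06 and was not called. In age-1 1 gene was higher, where 11.9% were called and 7.29% were higher. It was uaf-1 (0.19 ± 0.06, adjusted p = 0.037), and the call was lost when any of 5 single libraries was left out, which were wild type RNAi replicates 1, 2 and 3 and age-1 RNAi replicates 1 and 2 (adjusted p from 0.059 to 0.17).

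The test of the RNAi effect in each mutant minus that in wild type sums up where responses differed. In eat-2 5 of the 6 genes had a higher value than in wild type and none a lower one, where 10.7% of tested genes were called and 3.98% were higher. The called genes were repo-1, prp-21, sftb-1, sfa-1 and uaf-2, and uaf-1 (0.10 ± 0.09, 95% interval -0.08 to 0.27) was the exception. In raga-1 5 were called, where 55.6% of tested genes were called, of which 28.4% were higher and 27.2% lower. repo-1 was the 1 higher and prp-21, uaf-1, uaf-2 and sftb-1 the 4 lower. After quantile normalization only prp-21 (-0.25, adjusted p = 3.4e-04) and sftb-1 (-0.09, adjusted p = 0.036) were still called in raga-1. In clk-1 limma called none of the 6, 1 had an unadjusted p under 0.05, and edgeR called 1, with 23.6% of tested genes called. That gene was sfa-1, at -0.13 ± 0.06 (adjusted p = 0.12), and at -0.19 (adjusted p = 0.011) with edgeR. In age-1 none of the 6 was called by either tool, 1 had an unadjusted p under 0.05, and 0.00811% of all tested genes, a single gene, was called. These tests share the wild type libraries with each other and their other libraries with the tests above.

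Per kilobase of annotated exon, the 6 genes lay between 918 and 1742 normalized counts in wild type on empty vector. uaf-2 (1742 normalized counts per kilobase) and uaf-1 (1703) were highest, followed by repo-1 (1103), sftb-1 (1073), prp-21 (966) and sfa-1 (918). On RNAi repo-1 was the lowest of the 6 in wild type, at 418 normalized counts per kilobase, below sfa-1 at 899. In the raga-1 mutant on RNAi the order was uaf-2 (1785), uaf-1 (1642), sftb-1 (827), prp-21 (819), sfa-1 (818) and repo-1 (407). These levels rest on annotated exon lengths and not on the transcripts present.

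The genes were read beside their nearest protein-coding neighbours, since closely spaced C. elegans genes of the same strand are often transcribed together as operons. repo-1 lies between lex-1, 115 bases away, and rbm-34, 99 bases away, all on the plus strand. rbm-34 was not called under RNAi in any genotype, with log2 fold changes from -0.13 to 0.14. lex-1 was called lower in clk-1 (-0.10 ± 0.04, adjusted p = 0.023) and raga-1 (-0.43 ± 0.04, adjusted p = 1.1e-12) and gave -0.06, 0.01 and -0.002 in wild type, eat-2 and age-1. In wild type, eat-2 and age-1, repo-1 was thus called lower and neither neighbour was called.

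sfa-1 and uaf-2 are themselves separated by 1 gene, cyn-13, a cyclophilin gene that is 98 bases from sfa-1 and 113 bases from uaf-2 on the same minus strand, and Y116A8C.30 lies 109 bases from sfa-1 on its other side. The 3 genes from sfa-1 to uaf-2 gave different responses. In wild type sfa-1, cyn-13 and uaf-2 had log2 fold changes of -0.03 ± 0.04, 0.15 ± 0.07 and 0.31 ± 0.05, of which that of uaf-2 was called. In clk-1 they had -0.16 ± 0.04, -0.09 ± 0.07 and 0.28 ± 0.05, with sfa-1 called lower and uaf-2 called higher. In eat-2 all 3 were called higher, at 0.16, 0.25 and 0.61. Whether these rows take reads from each other was not tested, and the counting step is not given in the sources used here.

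The rest of the early splicing machinery was read from a list of 24 genes, of which 23 were in the table and all 23 were tested. It holds the remaining SF3a and SF3b subunits, U2 and U1 snRNP proteins, the Sm ring proteins, partners of U2AF and SF1 and helicases that act on the U2 snRNP. In eat-2 20 of the 23 rose under RNAi and none fell, where 16.2% of all tested genes rose and 21.4% fell. The median log2 fold change was 0.36 beside -0.03 over all tested genes. In wild type 9 rose and none fell (median 0.12 beside -0.02), in clk-1 12 rose and 1 fell (0.15 beside 0.00), and in age-1 9 rose and none fell (0.12 beside 0.00). In the same order, 10.1%, 23.8% and 10.6% of all tested genes rose and 12.9%, 22.5% and 10.2% fell. In raga-1 7 of the 23 rose and 11 fell (-0.08 beside 0.10), where 71.1% of all tested genes were called and 33% fell. That split was 10 and 5 after quantile normalization and 3 and 13 with TMM factors.

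ddx-46, a helicase that remodels the U2 snRNP before it binds the branch point, had the largest rise of the list in 4 genotypes and rose in all 5. Its log2 fold change was highest in eat-2 (0.81), followed by clk-1 (0.62), raga-1 (0.46), age-1 (0.36) and wild type (0.36), each ± 0.06, and its mean went from 2685 to 3434 in wild type and from 2550 to 4461 in eat-2. snr-6, the SmE protein gene, rose in all 5 as well on the deposited scale, by 0.24 ± 0.07 in wild type and 0.66 ± 0.07 in eat-2. snr-7, the SmG gene, rose by 0.66 ± 0.09 in eat-2, 0.29 ± 0.09 in clk-1 and, on the deposited scale, 0.57 ± 0.09 in raga-1. All 7 Sm genes rose in eat-2, where 16.2% of all tested genes rose, and 1 of them rose in wild type, where 10.1% did.

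Among the nearest partners, T13H5.4, the third SF3a subunit gene, rose by 0.22 in wild type and 0.40 in eat-2 and fell by 0.21 in raga-1, the same directions as prp-21. sap-49, an SF3b subunit gene, rose in all 5 genotypes, by 0.56 ± 0.05 in eat-2, 0.25 ± 0.05 in age-1, 0.24 in clk-1, 0.22 in wild type and, on the deposited scale, 0.15 in raga-1. rnp-7, which encodes the U1 70K protein, rose by 0.31 ± 0.05 in wild type, 0.45 ± 0.05 in clk-1 and 0.34 ± 0.05 in age-1, and prp-40, another U1 snRNP gene, rose by 0.26 ± 0.04 in wild type. In raga-1, rnp-6, which encodes a partner of U2AF, rose by 0.29 ± 0.04 and ddx-15, a helicase gene, fell by 0.28 ± 0.04. Compared with the effect of RNAi in wild type, the change was called higher for 15 of the 23 in eat-2 and lower for 10 in raga-1, with 1 higher there, and for 2 higher in clk-1 and none in age-1. Of all tested genes, 10.7% were called and 3.98% were higher in eat-2. In raga-1 55.6% were called, with 28.4% higher and 27.2% lower, and 23.6% were called in clk-1 and 0.00811% in age-1. The medians of the 23 were 0.27 in eat-2 and -0.17 in raga-1, beside 0.01 and 0.12 over all tested genes. In eat-2 10 were higher with TMM factors, with edgeR (which also had 1 lower) or within batches 3 and 4, and 7 within batches 1 and 2. In raga-1 15 were lower with TMM factors, and 6 were lower and 3 higher after quantile normalization. In clk-1 1 was higher and 2 lower with TMM factors, 2 and 2 after quantile normalization and 0 and 2 with edgeR. Neither pair of batches alone gave a called gene for clk-1. On the deposited scale the called genes in eat-2 included ddx-46 (0.45 ± 0.08), snr-7 (0.45 ± 0.12), snr-6 (0.42 ± 0.09) and snr-4 (0.42 ± 0.06). Those in raga-1 included T13H5.4 (-0.43 ± 0.05) and prp-40 (-0.40 ± 0.05).

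**Figure D5:**
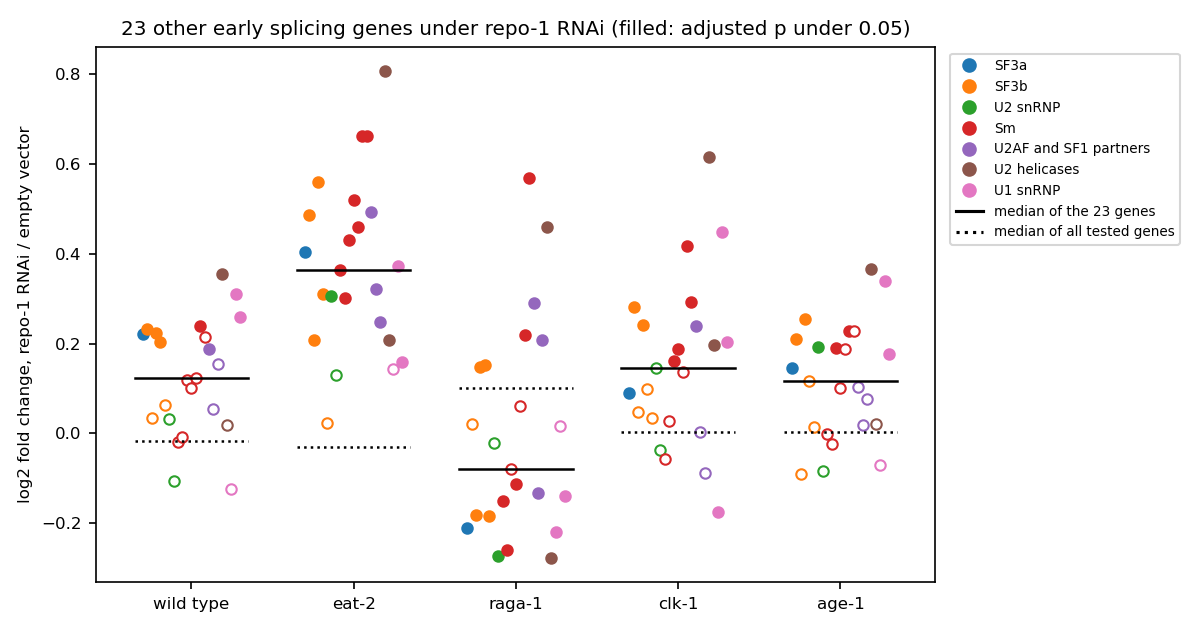
log2 fold change of repo-1 RNAi over empty vector (y axis) in each genotype (x axis) for 23 other genes of early spliceosome assembly, coloured by complex. Filled points have an adjusted p under 0.05, solid lines are the median of the 23 genes and dotted lines that of all 12327 tested genes. In eat-2 the median of the 23 is 0.36, and in raga-1, on the deposited scale, it is -0.08 and below the median of all genes.

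On empty vector the same list was lower in 3 mutants, with 14 of the 23 lower and 1 higher in eat-2 (median -0.13), 14 lower and 3 higher in raga-1 (-0.13) and 18 lower and 1 higher in clk-1 (-0.26), beside medians of 0.002, -0.02 and -0.007 over all tested genes. Of all tested genes, 57% were called and 29.8% lower in eat-2, 46.1% and 26.4% in raga-1, and 58.3% and 30.4% in clk-1. After quantile normalization 8 of the 23 were lower in eat-2 (median -0.04) and 9 in raga-1, where TMM factors also gave 9. In age-1 1 was higher and none lower, where 8.48% of all tested genes were called. The largest differences were in clk-1, at mog-2, a U2 snRNP protein gene (-0.62 ± 0.07), and the Sm genes snr-3 (-0.61 ± 0.05), snr-4 (-0.57 ± 0.04) and snr-2 (-0.49 ± 0.04). In eat-2 they were at rnp-3 (-0.36 ± 0.07) and the SF3b subunit gene teg-4 (-0.34 ± 0.05), and in raga-1 at teg-4 (-0.37 ± 0.05) and phf-5 (-0.32 ± 0.06). On RNAi 11 of the 23 were higher and 3 lower than wild type in eat-2, against 3 and 16 in raga-1, 2 and 16 in clk-1, and none and 1 in age-1. Over all tested genes, 46.9% were called and 23.4% higher in eat-2. The shares called and lower were 78.5% and 38% in raga-1 and 58.3% and 29% in clk-1, and 11.9% were called in age-1.

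Across the 10 group means on the log2 scale, uaf-2 and prp-21 followed each other most closely (Pearson r = 0.92), then uaf-1 and prp-21 (0.84) and prp-21 and sftb-1 (0.82). sfa-1 was closest to sftb-1 (0.77). repo-1 ran against uaf-2 (-0.61), and its correlations with sfa-1, uaf-1, prp-21 and sftb-1 were 0.35, -0.33, -0.29 and 0.08. These are descriptions over 10 groups that share their scaling. Among tested genes with a locus name, the patterns most like that of uaf-2 were attf-2 (0.98), smo-1 (0.97) and cyl-1 (0.97), and those most like prp-21 were prp-31 (0.96), attf-2 (0.96) and rnf-113 (0.96). For sftb-1 they were ruvb-2 (0.99), hars-1 (0.98) and prp-8 (0.97), and for uaf-1 gyf-1 (0.96), hrpu-1 (0.95) and pole-4 (0.95). For sfa-1 they were arx-4 (0.95), pot-3 (0.95) and pen-2 (0.94), and for repo-1 ssp-37 (0.97), try-10 (0.96) and inx-8 (0.96).

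The order of the 10 groups differed between the genes that were not targeted. For uaf-2 and prp-21 the first 3 places were eat-2 (2715 and 2740), age-1 (2274 and 2400) and wild type (2254 and 2290), all on RNAi, and the eat-2 groups did not overlap the next. The last place was clk-1 on empty vector for uaf-2 (1635) and raga-1 on RNAi for prp-21 (1717). For sftb-1 wild type led on both treatments (4621 on RNAi and 4579 on empty vector) and raga-1 on RNAi was last (3531). sfa-1 ran from age-1 on empty vector (2642) to clk-1 on RNAi (2048), and uaf-1 from age-1 on RNAi (3583) to clk-1 on empty vector (2646). Of the 9 pairs of neighbours in each order, 9 overlapped in range for uaf-1, 8 for sfa-1 and sftb-1, and 7 for repo-1, uaf-2 and prp-21, so most adjacent places in these orders do not differ beyond the spread.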

How the data were processed

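Stranded mRNA-seq libraries (Roche Kapa stranded mRNA HyperPrep, per the labels' protocols) were made from total RNA of whole worms. The authors deposited a signal for each gene and library, which is its read count over a size factor of that library. FastQC 0.11.8, Salmon 0.14.2, STAR, MultiQC, DESeq2 and the build WBcel235 are named in the submitters' processing notes. The aligner's settings, the strand setting and the counting step are not given in the sources used here. Whole reads were recovered as multiples of a library's lowest value above 0 (tolerance 0.01 reads, met by 100% of values), and in 2 of the 40 columns the step was within 1% of 1, so the test carried no information there. The depths are given with the results.

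limma 3.58.1 in R 4.3.3 (edgeR 4.0.16 for alternatives) was run on log2(value + 1), with an intensity trend and 1 mean per group over all 40 libraries, for genes with a mean of at least 10, in 18 comparisons. The fit was tested on simulated data. All 40 value columns were matched to a library. Coordinates, exon lengths and neighbours came from Ensembl release 115 of the same build. The repo-1 ratio within libraries was tested by exact permutation in SciPy 1.17.1. The labels give the library number as the batch, so same-numbered libraries are paired. The median residual correlation was 0.031 for same-numbered and -0.014 for other libraries, and 7 of 45 pairs of groups had a mean over 0.1. Alternatives were the pseudocount, the filter, TMM and quantile scaling, library weights, the batch as a replicate block, batches 1 and 2 or 3 and 4 alone, edgeR on recovered reads, only the groups compared, and libraries left out.

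The 6 genes, the 24 splicing genes and the marker lists (germline and oocyte, sperm, body wall muscle, neuron, intestine, hypodermis) were chosen with earlier results of these data known. Named were the 6 genes, up to 4 called splicing genes of largest change per comparison, the 3 best correlated genes with a locus name, the nearest protein-coding neighbours, and the mutated genes. Values of T13H5.4, sap-49, snr-6, snr-7 and ddx-46 in further genotypes were added after they were seen. One listed splicing gene, sftb-5, had no match by name, and the entry for cyn-13 had been written under another name. No sequences are shown.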

Additional observations from a re-analysis of the deposited data

Results flagged for a closer look

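Of 70 sets of 4 libraries examined, the 60 of single genes and the 10 of the repo-1 ratio, 8 had a library far from the other 3, where chance gives about 1 in 20. The raga-1 empty vector library of replicate 1 accounts for 3 of them. It held the highest uaf-1 value of its group (3774, with the others at 2949 to 3039) and the highest prp-21 value (2091, with the others at 1903 to 1933), and repo-1 relative to the other 5 genes was lowest in it (-2.23). The clk-1 empty vector library of replicate 4 accounts for 2, with the highest repo-1 (693) and the highest prp-21 (1926) of its group. The other 3 were repo-1 in wild type empty vector replicate 4 (889, high), uaf-2 in eat-2 empty vector replicate 2 (1911, high) and sftb-1 in wild type RNAi replicate 1 (4519, low).

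The effect of repo-1 RNAi differed between a mutant and wild type in 10 tests. In eat-2 the log2 difference was 0.47 for repo-1, 0.19 for sfa-1, 0.30 for uaf-2, 0.34 for prp-21 and 0.19 for sftb-1. In raga-1 it was 0.33 for repo-1, -0.27 for uaf-1, -0.22 for uaf-2, -0.37 for prp-21 and -0.17 for sftb-1. The 10 tests share the wild type libraries.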

How the results depend on the processing

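The fall of repo-1 under RNAi was called in every genotype under each of its 23 alternatives, with log2 fold changes from -1.44 to -1.27 in wild type, -1.06 to -0.80 in eat-2, -1.18 to -0.99 in raga-1, -1.37 to -1.26 in clk-1 and -1.28 to -0.97 in age-1. The fall of the repo-1 ratio kept its direction in all alternatives, and with libraries paired by batch its exact sign-flip p was 0.125, the smallest that 4 pairs allow. With the batch as a replicate block, uaf-1 in clk-1 against wild type on empty vector (-0.14) had an adjusted p of 0.052, and no other call on the 6 genes changed.

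Among called values, changes of direction occurred for sfa-1 (0.026) and uaf-1 (0.020) in raga-1 against wild type on RNAi after quantile normalization, and for sftb-1 averaged over genotypes under TMM scaling (-3.9e-06). Another 104 values that were not called changed sign under an alternative. The number of the 6 genes called moved by over 1.5 times as follows, and the cause was not tested. Quantile normalization gave 2 for RNAi in raga-1 (from 4), 3 for clk-1 on empty vector (from 6), 1 for age-1 on empty vector (from 0), and 3, 2 and 1 for the difference from wild type in eat-2 (from 5), raga-1 (from 5) and clk-1 (from 0). Batches 1 and 2 alone gave 3 for RNAi in clk-1 (from 5) and averaged over genotypes (from 5), 1 for eat-2 on empty vector (from 3), 3 for raga-1 and 2 for age-1 on RNAi (from 5 and 1), and 2 and 3 for the differences in eat-2 and raga-1. Batches 3 and 4 alone gave 2 for RNAi in age-1 (from 4), 3 for clk-1 on empty vector, 0 for age-1 on RNAi and 3 for the difference in eat-2. TMM scaling and edgeR each gave 1 for the difference in clk-1. Library weights gave 1 for age-1 on empty vector and 4 for eat-2 on RNAi (from 2), a pseudocount of 0.5 gave 1 for age-1 on empty vector, and no filter or only the compared groups gave 0 for age-1 on RNAi. Leaving out libraries gave 3 to 5 for RNAi in clk-1, 0 to 1 for age-1 on empty vector, 0 to 2 for age-1 on RNAi and 3 to 5 for the difference in eat-2.

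With 4 libraries per group, the SE of a comparison between groups was 0.09 for repo-1 and 0.03 to 0.06 for the others.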
